A study of Homo sapiens with 12 samples.

Results

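The cytosolic tRNAs for aspartate with the anticodon GTC were followed through bisulfite sequencing of U251 cells, an established human glioblastoma line. All listed cytosines whose tRNA name begins with tRNA-Asp-GTC were kept, which gave 11 of the 59 cytosines listed in the series. tRNA-Asp-GTC-1-1 contributed 3 of them and tRNA-Asp-GTC-2-5 contributed 8. The 2 tRNAs are isodecoders, that is, tRNAs that share an anticodon and differ elsewhere in the body.

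Bisulfite deaminates unmodified cytosine, which is then sequenced as T, and a methylated cytosine resists and stays C. The methylation level is the percentage of reads with C among those with C or T. The libraries were labelled Si (n = 3) and NC (n = 3) with no further description. The design text of the series names NSUN3-knockdown and wild-type U251 cells, and Si is taken here to mean the knockdown. The same text names T98G, another glioblastoma line, whose libraries were not analysed here. Whether the replicates were separate cultures is not stated, so p-values measure only the spread between these libraries, which may be technical. The level of NSUN3 RNA or protein was not measured in this assay, which leaves the knockdown itself unchecked here, and cell type markers are likewise outside what tRNA sequencing shows.

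Methylation of tRNA at the carbon 5 of cytosine is laid down by enzymes with separate sites. TRDMT1, also called DNMT2, methylates cytosine 38 in the anticodon loop, and tRNA-Asp is its best known substrate, beside tRNA-Gly-GCC. In Drosophila this methylation is known to protect tRNAs from cleavage under stress. NSUN2 methylates cytosines 48 to 50, at the junction of the variable loop with the T stem. NSUN3 works on the wobble position of mitochondrial tRNA-Met and is not known as an enzyme of tRNA-Asp, whose wobble base is a guanosine or its derivative queuosine.

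The sequences deposited with the site lists are shown because the comparison rests on how alike the isodecoders are. Capitals mark every cytosine listed in at least 1 library.
tRNA-Asp-GTC-1-1: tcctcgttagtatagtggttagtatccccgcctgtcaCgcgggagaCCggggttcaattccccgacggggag
tRNA-Asp-GTC-2-5: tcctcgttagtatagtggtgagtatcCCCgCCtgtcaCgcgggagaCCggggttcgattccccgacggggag

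Of 72 bases, 70 were identical. The differences, with bases counted from 1 at the 5′ end and tRNA-Asp-GTC-1-1 given first, were T20G in the D loop and A56G in the T loop. The 35 bases from 21 to 55 were the same in both and held all 11 listed sites. Positions below are standard tRNA numbers, in which the anticodon is 34 to 36. For the listed sites they equal the base number up to position 38, while position 48 is base 47 and position 49 is base 48. A read that covers neither base 20 nor base 56 fits both tRNAs, and the sources used here do not say how such reads were assigned.

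tRNA-Asp-GTC-1-1 is encoded by 1 gene, TRD-GTC1-1 on chromosome 12 (98503503 to 98503574, plus strand, hg38). tRNA-Asp-GTC-2-5 stands for 11 gene copies of 1 sequence, with 5 on chromosome 1, 2 on chromosome 6, 3 on chromosome 12 and 1 on chromosome 17, and the named copy is TRD-GTC2-5 on chromosome 1 (161470415 to 161470486, minus strand). Its values therefore cannot be traced to a single locus. Cytosine 38 lies at 98503540 on chromosome 12 in the single-copy tRNA and at 161470449 on chromosome 1 in the named copy of the other. All sites are within the mature tRNA part of these noncoding genes.

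Each isodecoder holds 20 cytosines. In tRNA-Asp-GTC-1-1, 17 of them were listed in no library, and in tRNA-Asp-GTC-2-5, 12 were. The lists begin at 30 reads and a level of 10.0%, so an unlisted cytosine has an unknown level and was treated as missing, not as unmethylated. Reads over the aspartate sites ran from 31 to 70. The Si libraries listed 10, 10 and 6 aspartate sites of 39, 38 and 38 in all, and the NC libraries 11, 6 and 11 of 47, 34 and 38. Positions 38 and 49 of both tRNAs and position 48 of tRNA-Asp-GTC-2-5 were listed in all 6 libraries. Position 48 of tRNA-Asp-GTC-1-1 was listed in 5.

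**Figure D1:**
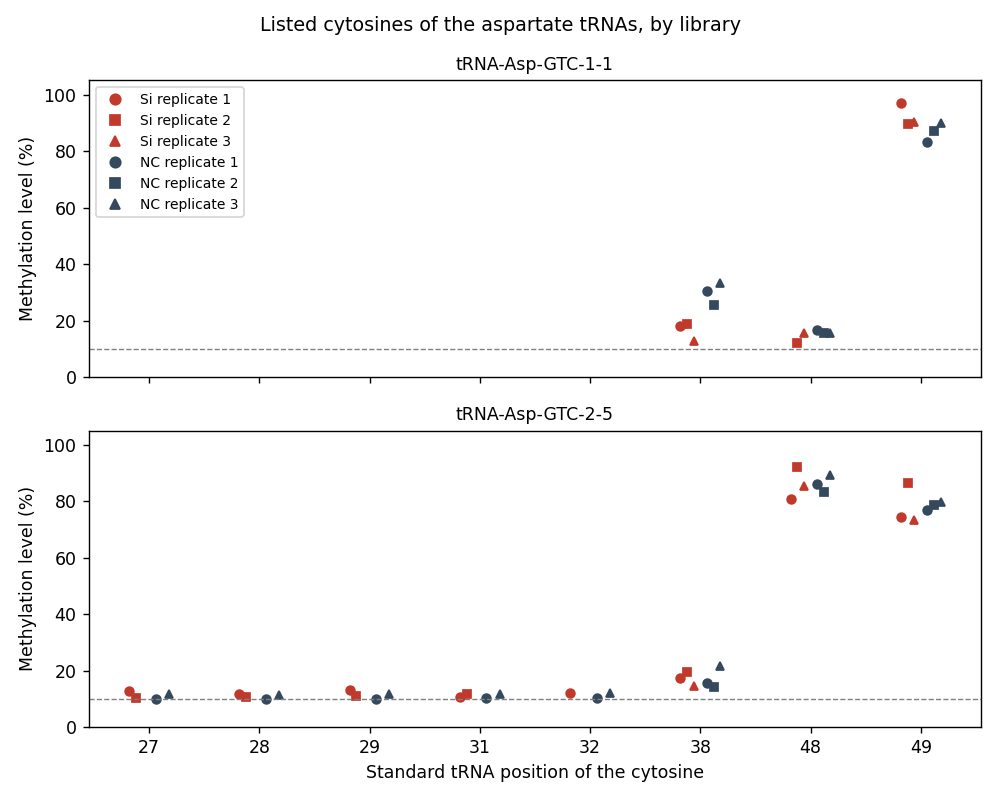
Methylation level (percent of reads) at each listed cytosine of both aspartate tRNAs, 1 point per library, with Si libraries left of NC libraries at each position; the dashed line marks the lowest listed level of 10.0%. Position 48 stands between 12.2% and 16.7% in tRNA-Asp-GTC-1-1 and between 80.8% and 92.1% in tRNA-Asp-GTC-2-5, and positions 27 to 32 appear in tRNA-Asp-GTC-2-5 alone.

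At cytosine 38, the TRDMT1 site, part of the reads stayed C in both isodecoders. Such reads are counted here as methylated, and whether some were incompletely converted was not tested. In tRNA-Asp-GTC-1-1 the level was 18.2%, 18.6% and 12.9% in the Si libraries, against 30.3%, 25.6% and 33.3% in the NC libraries. The groups did not overlap, with all Si values lower. In reads, 18 of 107 were methylated over the Si libraries and 33 of 111 over the NC libraries. In tRNA-Asp-GTC-2-5 the same cytosine stood at 17.5%, 19.6% and 14.6% in Si, against 15.8%, 14.3% and 21.7% in NC, and the groups overlapped. There 26 of 151 reads were methylated in Si and 30 of 173 in NC.

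With 31 to 43 reads behind each value in tRNA-Asp-GTC-1-1, counting error was wide. The exact binomial (Clopper-Pearson) 95% intervals ran from 3.63% to 29.8% in Si replicate 3 and from 19.1% to 50.2% in NC replicate 3, the lowest and the highest library, so even these overlapped. Such intervals leave out every error but counting, and reads that carry no molecular identifier may be copies of 1 molecule.

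The first comparison asked whether any aspartate cytosine differed between Si and NC. It was made with edgeR's quasi-likelihood test over all 31 sites of the series listed in at least 2 libraries of each group, 10 of them aspartate sites, with Benjamini-Hochberg adjustment. At an adjusted p below 0.05, 0 of the 10 aspartate sites passed, where 3.23% of all tested sites did. At position 38 of tRNA-Asp-GTC-1-1 the level averaged 16.6% ± 3.18 in Si and 29.8% ± 3.87 in NC (SD, n = 3 each), a difference of -13.2 percentage points. The log2 odds ratio was -1.06 with an unadjusted p of 0.0235 in edgeR and an adjusted p of 0.365. It was the 1 aspartate site with an unadjusted p below 0.05, a mark that 9.68% of all tested sites reached. It was also the 1 of the 5 aspartate sites listed in all libraries whose groups did not overlap, where 9.52% of all such sites had groups apart. limma also called 0 aspartate sites and gave this site an adjusted p of 0.129; over 12 alternatives its adjusted p ran from 0.129 to 0.985.

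Position 38 of tRNA-Asp-GTC-2-5 averaged 17.2% ± 2.51 in Si and 17.2% ± 3.90 in NC (SD, n = 3 each). Its log2 odds ratio was -0.0069 with an adjusted p of 0.984 in edgeR, and the sign of so small a value turned with the setting, to 0.024 with limma. The test missing its threshold does not show that the level was the same, since leaving out single libraries moved the log2 odds ratio between -0.15 and 0.23.

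The next comparison asked whether the 2 isodecoders carry the same level at this shared cytosine. In the Si libraries the level in tRNA-Asp-GTC-1-1 minus that in tRNA-Asp-GTC-2-5 was 0.638, -0.961 and -1.68 percentage points, against 14.5, 11.4 and 11.7 points in the NC libraries. The isodecoders thus lay close together in every Si library and at least 11.4 points apart in every NC library. Over all 6 libraries tRNA-Asp-GTC-1-1 averaged 23.2% ± 7.89 and tRNA-Asp-GTC-2-5 averaged 17.2% ± 2.93 (SD, n = 6), and the paired difference of 5.92 ± 7.34 points did not pass (exact two-sided paired permutation p = 0.219, adjusted p = 0.219 over the 2 positions listed for both tRNAs in all libraries, higher in 4 of 6 libraries). The test pools Si with NC, and its SD of 7.34 points includes the split between them. It therefore cannot say whether the isodecoders differ within either group.

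The difference between the isodecoders averaged -0.668 ± 1.19 points in Si and 12.5 ± 1.74 points in NC (SD, n = 3 each). These differ by -13.2 points, with an exact two-sided permutation p of 0.1, the smallest that 3 libraries against 3 allow, so no threshold of 0.05 could have been passed. The gap is the lower Si level of tRNA-Asp-GTC-1-1 seen again and no separate result. Si minus NC was -13.2 points in that tRNA and -0.016 points in tRNA-Asp-GTC-2-5. The adjusted p of the gap was 0.143 over the 10 comparisons tested exactly, alternative settings not counted. No adjusted p over these 10 could have fallen below 0.05, because of the smallest p-values that so few libraries allow.

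**Figure D2:**
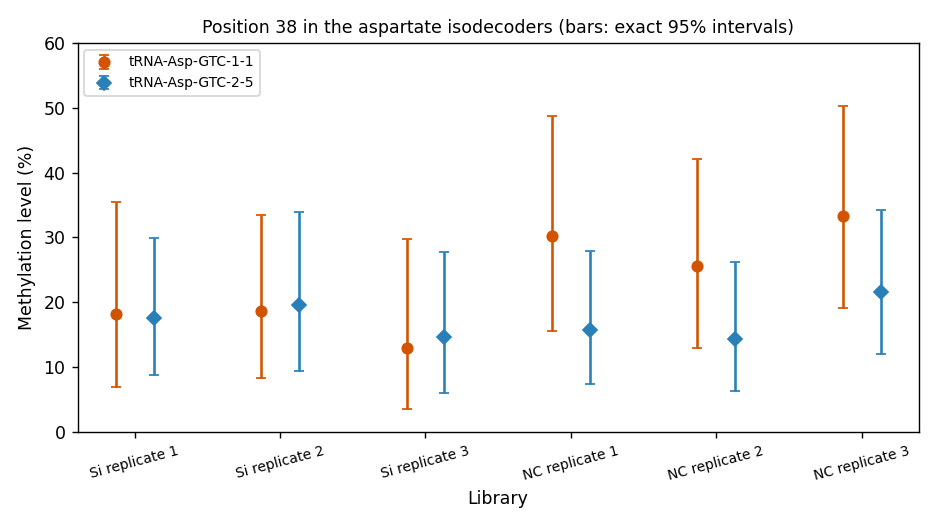
Methylation level (percent of reads) at position 38 in each library, with tRNA-Asp-GTC-1-1 as circles left of tRNA-Asp-GTC-2-5 as diamonds; bars are exact binomial 95% intervals for counting error. The circles stand at 12.9% to 18.6% in Si and at 25.6% to 33.3% in NC, while the diamonds stand at 14.6% to 19.6% in Si and at 14.3% to 21.7% in NC.

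Read coverage of tRNA-Asp-GTC-1-1 also differed between the groups. At position 49 it had 34, 38 and 31 reads in Si, against 42, 46 and 49 reads in NC, and the groups did not overlap. Of all 21 sites listed in every library 71.4% had reads that did not overlap between the groups, some higher and some lower in Si, so the separation is nothing particular to this site, the 1 of the 5 aspartate sites that showed it. At position 38 it had 33, 43 and 31 reads in Si, against 33, 39 and 39 in NC, which overlapped. Reads at 49 over reads at 38 came to 0.971 ± 0.0774 in Si and 1.24 ± 0.0498 in NC (SD, n = 3 each), again without overlap. Among the 4 tRNAs with both positions in all libraries it was the 1 whose ratios did not overlap, or 25%. In tRNA-Asp-GTC-2-5 the same ratio was 0.851 ± 0.0453 in Si and 0.803 ± 0.0440 in NC (SD, n = 3 each) and overlapped. The part of this coverage in the levels at position 38 was not tested. Library depth is unknown, so these raw reads do not measure the amount of tRNA. A change in the number of cells and a change in tRNA per cell cannot be told apart in such bulk samples either. What underlies the ratio of reads was not tested.

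**Figure D3:**
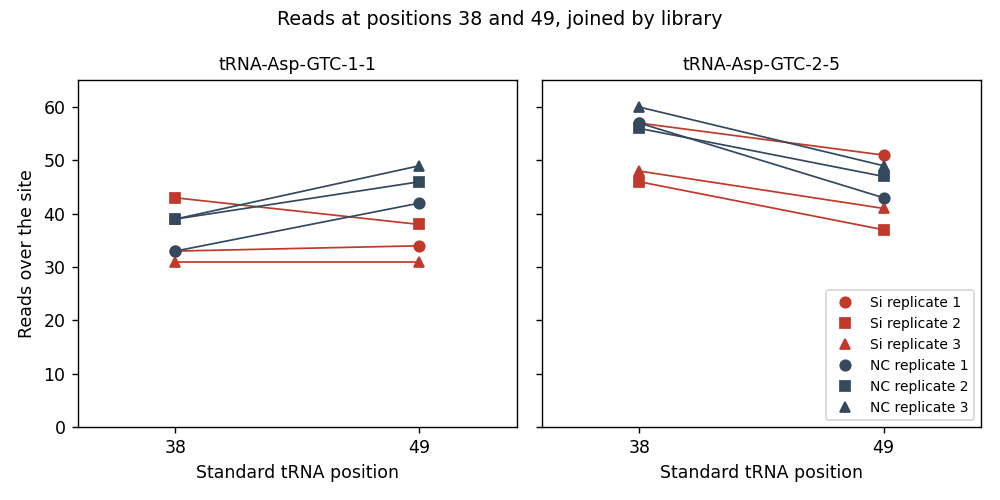
Reads over positions 38 and 49 of each aspartate tRNA, joined by library, with Si in red and NC in dark grey. In tRNA-Asp-GTC-1-1 the NC lines rise to 42 to 49 reads at position 49 and the Si libraries end at 31 to 38 reads, while in tRNA-Asp-GTC-2-5 every line falls.

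The largest difference between the isodecoders lay at position 48, one of the NSUN2 sites. In tRNA-Asp-GTC-1-1 its level was 12.2% and 15.6% in Si replicates 2 and 3, against 16.7%, 15.6% and 15.7% in the NC libraries. In tRNA-Asp-GTC-2-5 it was 80.8%, 92.1% and 85.4% in Si, against 86.0%, 83.3% and 89.4% in NC. No library of 1 tRNA came near a library of the other. The paired difference, tRNA-Asp-GTC-1-1 minus tRNA-Asp-GTC-2-5, was -72.1 ± 4.88 percentage points (SD, n = 5) and ran from -79.9 to -67.8. Over these 5 libraries the highest upper limit of a 95% interval in tRNA-Asp-GTC-1-1 was 32.8% and the lowest lower limit in tRNA-Asp-GTC-2-5 was 69.8%, so counting error did not bridge the gap in any library. The exact paired permutation p was 0.0625, the smallest that 5 libraries allow, so this test too could not pass 0.05. Si replicate 1 did not list position 48 of tRNA-Asp-GTC-1-1, although it had 33 and 34 reads at positions 38 and 49 of that tRNA.

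The cytosine next to it, position 49, also an NSUN2 site, was highly methylated in both isodecoders. In tRNA-Asp-GTC-1-1 the level was 97.1%, 89.5% and 90.3% in Si, against 83.3%, 87.0% and 89.8% in NC. In tRNA-Asp-GTC-2-5 it was 74.5%, 86.5% and 73.2% in Si, against 76.7%, 78.7% and 79.6% in NC. The Si and NC libraries overlapped in both tRNAs. tRNA-Asp-GTC-1-1 lay above tRNA-Asp-GTC-2-5 in 6 of 6 libraries, by 11.3 ± 7.25 points (SD, n = 6), with an exact two-sided paired permutation p of 0.0312, the smallest that 6 libraries allow. The adjusted p was 0.0625 over the 2 shared positions and 0.0781 over the 10 exact tests, so it did not pass after adjustment. The difference ran from 2.99 points in Si replicate 2 to 22.5 points in Si replicate 1, and was 7.00 points over the 4 libraries with at least 35 reads in both tRNAs. Between the groups it averaged 14.2 ± 10.1 points in Si and 8.34 ± 1.81 points in NC (SD, n = 3 each; exact permutation p = 0.4, adjusted p = 0.4). That gap of 5.89 points moved with single libraries: it was 1.73 points without Si replicate 1 and 11.5 points without Si replicate 2.

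In tRNA-Asp-GTC-1-1 position 48 was thus far below position 49, by -72.8 ± 4.03 points (SD, n = 5; exact paired permutation p = 0.0625, the smallest possible, adjusted p = 0.104). In tRNA-Asp-GTC-2-5 the order was the other way round. Position 48 lay above position 49 in 6 of 6 libraries, by 7.96 ± 2.92 points (SD, n = 6; exact paired permutation p = 0.0312, adjusted p = 0.0781). Both of these comparisons were added after the values had been seen.

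**Figure D4:**
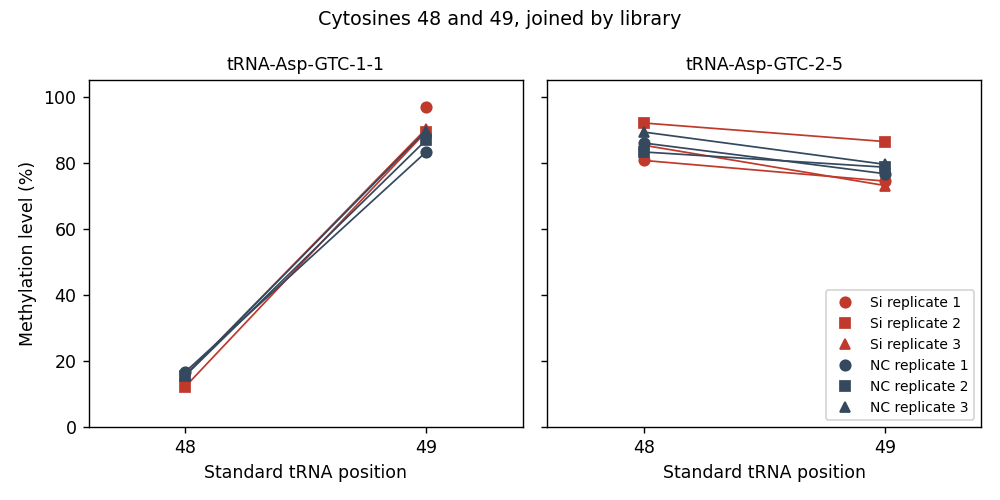
Methylation level (percent of reads) at positions 48 and 49 of each aspartate tRNA, joined by library, with Si in red and NC in dark grey. In tRNA-Asp-GTC-1-1 5 lines join levels of 12.2% to 16.7% at position 48 to levels of 83.3% to 90.3% at position 49 and the point without a line is Si replicate 1, and in tRNA-Asp-GTC-2-5 all 6 lines fall from position 48 to position 49.

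Between Si and NC neither junction site passed the test in either tRNA, which does not show that the levels were the same. Position 48 averaged 13.9% ± 2.43 in Si (SD, n = 2) and 16.0% ± 0.607 in NC (SD, n = 3) in tRNA-Asp-GTC-1-1, with an adjusted p of 0.984 in edgeR. Si replicate 1 did not list this site, and a level below 10.0% would leave it unlisted. The Si mean there may thus be too high, and the test cannot tell whether the groups were alike. In tRNA-Asp-GTC-2-5 position 48 averaged 86.1% ± 5.70 in Si and 86.2% ± 3.02 in NC (SD, n = 3 each), with an adjusted p of 0.984 in edgeR. Position 49 averaged 92.3% ± 4.16 in Si and 86.7% ± 3.24 in NC in tRNA-Asp-GTC-1-1 (adjusted p = 0.653 in edgeR), and 78.1% ± 7.33 in Si and 78.4% ± 1.46 in NC in tRNA-Asp-GTC-2-5 (adjusted p = 0.984 in edgeR; SD, n = 3 each). Of the 10 tested aspartate sites, the fitted level in Si was lower at 5 and higher at 5, with a median log2 odds ratio of 0.0055, beside 21 lower and 10 higher and a median of -0.11 over all 31 tested sites. In tRNA-Asp-GTC-2-5 the stem sites at 27, 28, 29 and 31 make up 4 of the 5 higher ones; they share nearly equal read counts and are listed only at 10.0% or above, so a fall there would leave them unlisted, and the balance of directions says little.

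The anticodon stem and the start of the anticodon loop were listed in tRNA-Asp-GTC-2-5 alone, at positions 27, 28, 29 and 31 of the stem and 32 of the loop. These sites were listed in Si replicates 1 and 2 and in NC replicates 1 and 3, except position 32, which Si replicate 2 lacked, and none of them in the other 2 libraries. Position 27 had 12.9% and 10.3% in Si, against 10.0% and 11.6% in NC. Over all 5 positions the levels ran from 10.3% to 13.2% in Si and from 10.0% to 11.9% in NC, at or just above the lowest level the lists hold. The number of unconverted reads hardly varied along the stretch within a library. It was 7 to 9 in Si replicate 1 and 6 at each listed site in Si replicate 2, against 7 at every site in NC replicate 1 and 8 at every site in NC replicate 3, out of 51 to 70 reads. The files hold no read-level calls, so whether these were the same reads was not tested. None of the stem sites passed the test between Si and NC, with adjusted p-values of 0.984 in edgeR at each of the 4 tested positions.

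Cytosine 38 of tRNA-Asp-GTC-2-5 lay above the mean of the 4 stem sites in each of the 4 libraries that listed them. It averaged 18.6% ± 2.54, against 11.2% ± 0.872 in the stem (SD, n = 4), a difference of 7.48 ± 2.26 points. That gap rests on few reads. Position 38 held 10 and 9 unconverted reads in Si replicates 1 and 2, against 7 to 9 and 6 in the stem. In NC replicates 1 and 3 it held 9 and 13, against 7 and 8. Coverage was also lower, at 46 to 60 reads, against 51 to 70 in the stem. The exact paired permutation p was 0.125, the smallest that 4 libraries allow. Si replicate 3 and NC replicate 2, which listed no stem site, had the lowest level at position 38 in their groups, 14.6% and 14.3%. Over all 6 libraries position 38 averaged 17.2% ± 2.93 (SD). Stem sites are listed only at 10.0% or above, so the stem mean is an upper value and the libraries compared were picked by the listing. Cytosine 26 next to the stem, cytosine 40 within it and cytosine 36 of the anticodon were listed in neither tRNA.

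Set beside tRNA-Gly-GCC, the other TRDMT1 substrate in the lists, the aspartate tRNAs carried far less methylation at cytosine 38. The stretch around it, printed with position 38 as a capital, is shown because both kinds of tRNA resemble each other there.
both tRNA-Asp: ccgcctgtcaCgcgggagacc
both tRNA-Gly-GCC: tcgcctgccaCgcgggaggcc

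The mean over both aspartate tRNAs was 17.9%, 19.1% and 13.7% in Si and 23.0%, 20.0% and 27.5% in NC. The mean over both glycine tRNAs was 68.1%, 73.9% and 70.0% in Si and 79.9%, 79.1% and 70.1% in NC. It describes neither glycine tRNA alone. tRNA-Gly-GCC-1-1 averaged 84.7% ± 2.38 in Si and 89.9% ± 5.17 in NC (SD, n = 3 each). tRNA-Gly-GCC-2-1 averaged 56.7% ± 4.58 in Si and 62.8% ± 6.02 in NC (SD, n = 3 each). Both averaged lower in Si, and neither passed the test in edgeR (adjusted p = 0.653 each). The aspartate mean was lower in 6 of 6 libraries, by -53.3 ± 6.04 percentage points (SD, n = 6), with an exact two-sided paired permutation p of 0.0312, the smallest possible, and an adjusted p of 0.0781 over the 10 exact tests. In that family no adjusted p could have fallen below 0.05.

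At the junction, 16 sites at positions 48 to 50 were listed in all 6 libraries, 3 of them in the aspartate tRNAs. From the highest mean level down, position 49 of tRNA-Asp-GTC-1-1 came 5th, position 48 of tRNA-Asp-GTC-2-5 came 6th and its position 49 came 9th, at 89.5% ± 4.53, 86.2% ± 4.08 and 78.2% ± 4.73 (SD, n = 6). The other 13 sites ran from 19.4% to 97.2% with a median of 76.9%. The mean over the 3 aspartate sites was 84.6% ± 2.73 and over the 13 others 75.7% ± 1.32 (SD, n = 6), a difference of 8.96 ± 3.49 points (higher in 6 of 6 libraries, exact paired permutation p = 0.0312, adjusted p = 0.0781). That direction depended on which sites were included. The alternative that follows adds a partly listed site on the aspartate side alone. Partly listed sites of the other tRNAs stayed out, so its 2 sides were chosen by unlike rules. With position 48 of tRNA-Asp-GTC-1-1 included, over the 5 libraries that list it, the aspartate mean was 67.3% ± 1.91 against 75.8% ± 1.42, a difference of -8.47 ± 2.80 points (SD, n = 5; exact paired permutation p = 0.0625, an alternative setting outside the 10 tests).

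In 7 tRNAs of the series positions 48 and 49 were both listed in at least 2 libraries. Among these 7, tRNA-Asp-GTC-2-5 was the 1 in which position 48 averaged higher than position 49. A tRNA with a high position 48 and no such listing of position 49 could not enter. tRNA-iMet-CAT-1-1 and tRNA-Thr-CGT-4-1, with 74.9% and 71.0% at position 48, were left out in this way. In tRNA-Asp-GTC-1-1 the gap of -72.8 points stood among those of tRNA-Glu-TTC-2-1 (-86.0 points, n = 2 libraries), tRNA-Gly-CCC-1-1 (-80.9 points, n = 4) and tRNA-His-GTG-1-4 (-64.6 points, n = 6). It was -16.1 points in tRNA-Gly-GCC-1-1 and -10.6 points in tRNA-Gly-GCC-2-1 (n = 6 each). These gaps are a description with no test, drawn up after the values had been seen.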

How the data were processed

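Per the labels' protocols, small RNA was enriched, demethylated with AlkB, an enzyme that strips methyl groups on which reverse transcriptase stalls, then bisulfite-converted and sequenced after selection for the size of tRNA fragments. The tool cutadapt 1.9.3 and the genome build hg38 are named in the submitters' processing notes; which aligner, site caller and filters were used, the sources used here do not give. Incomplete conversion and other bisulfite-resistant bases look like methylation.

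The deposited lists, 1 per library, give per the file headers whole-number counts of reads over the site, with C and with another base, and the authors' level as a fraction, which equals C over C plus T within 0.05 percentage points. The 11 aspartate sites were held in 6 lists that reach down to 30 reads, so library depth is unknown.

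Standard positions were set from the anticodon and the 3′ end. Gene symbols come from RefSeq (GRCh38.p14), matched by coordinates. A site was tested if 2 or more libraries of each group listed it with 10 or more reads. The test was edgeR 4.0.16's quasi-likelihood test (R 4.3.3; glmQLFTest, an intercept per library, no dispersion trend), adjusted over 31 sites at a threshold of 0.05, and with limma 3.58.1. Within-library differences were tested by exact permutation in scipy 1.17.1. The members, comparisons and named sites (all sites of both tRNAs, position 38 of tRNA-Gly-GCC and the junction sites) were chosen with earlier results of these data known. Same-numbered libraries were taken as unpaired, since their deviations correlated at 0.062, 0.26 and -0.38 over 21 sites.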

Additional observations from a re-analysis of the deposited data

How the results depend on the processing

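In the per-site test over the whole series the count of 1 called site, which is not an aspartate site, became 0 with limma and 0 with quasi-binomial regression, and was 0 without any 1 of the libraries, for causes that were not tested. With a replicate block it stayed at 1, and the log2 odds ratio at position 38 of tRNA-Asp-GTC-1-1 was -1.05 (adjusted p = 0.224). That value kept its sign under all 12 alternatives and was -1.20 to -0.90 with a library left out. It could not be computed at 35 or 40 reads, which leave too few Si libraries. In tRNA-Asp-GTC-2-5 limma reversed positions 38 (0.024), 48 (0.0099) and 49 (0.0092). Leaving out a library gave -0.15 to 0.23, -0.37 to 0.31 and -0.36 to 0.12 there.

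At 35 reads, which leaves fewer libraries, the isodecoder difference at position 49 was 7.00 points, aspartate minus glycine at position 38 was -52.2 and aspartate minus other junction sites 7.03, and none could pass. At 40 reads the difference at position 49 was 8.34, and position 48 minus 49 of tRNA-Asp-GTC-2-5 was 8.43. With position 48 of tRNA-Asp-GTC-1-1, an alternative chosen after seeing the data, the junction difference reversed to -8.47. Partly listed sites were added there for aspartate alone and not for the other tRNAs. Leaving out a library gave 9.03 to 12.9 (isodecoders at 49), -55.5 to -52.2 (aspartate minus glycine), 7.79 to 9.91 (junction) and 7.11 to 8.63 (position 48 minus 49 of tRNA-Asp-GTC-2-5), all with an exact p of 0.0625, the smallest that 5 libraries allow. The Si minus NC gap in the isodecoder difference at position 38 was -13.8 to -12.2 with a library left out, and with a replicate block p was 0.25, the smallest 3 pairs allow. Position 38 against the stem was to be tested over stem sites listed in all libraries; there were none, so 4 libraries were used, and position 48 between isodecoders used 5, both chosen after seeing the data. The 31 to 70 reads per aspartate site limit the precision of all these levels.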

Other observations

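At the junction of tRNA-Asp-GTC-1-1 the unconverted reads at position 48 and the converted reads at position 49 were close in number. They were 5 and 4 in Si replicate 2 and 5 and 3 in Si replicate 3, beside 7 and 7 in NC replicate 1, 7 and 6 in NC replicate 2 and 8 and 5 in NC replicate 3, of 31 to 51 reads. In tRNA-Asp-GTC-2-5 the converted reads at position 49 numbered 13, 5 and 11 in Si and 10, 10 and 10 in NC, beside 42, 35 and 35 unconverted reads at position 48 in Si and 37, 40 and 42 in NC. The counts do not say which reads carried both.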
